A study of Homo sapiens with 4 samples.

Results

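The comparison described here set H1975 cells that are resistant to osimertinib against H1975 cells that are sensitive to it. H1975 is an established human lung adenocarcinoma cell line that carries activating mutations of EGFR, and osimertinib is an irreversible inhibitor of the EGFR tyrosine kinase. The label H1975OR marks the resistant cells; the sources used here do not state how the resistance was obtained, whether the cells are a clone, or whether drug was present at harvest. Both samples are poly(A) RNA libraries of whole cultures, 1 library for each of 2 groups, and the series holds 2 further libraries of HCC827, another lung adenocarcinoma line, sensitive or resistant to gefitinib. Genes were taken by NCBI Gene ID, and a gene was considered where it had at least 1 FPKM (fragments scaled by transcript length and by the library's total) and at least 20 expected counts in at least 1 of the H1975 libraries. This left 11872 genes of 16844 listed in at least 1 H1975 library and 17490 listed anywhere in the series. Of the genes that were not considered, 26 reached 1 FPKM but not 20 counts.

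Epithelial cells hold together through adherens junctions, desmosomes and tight junctions, rest on the basement membrane through hemidesmosomes, and keep an apical surface apart from a basal one by a set of polarity proteins. Transcription factors such as GRHL2, OVOL2 and EHF keep these genes on, and the ZEB and SNAI repressors are known to bind E-boxes in their promoters and to turn them off in an epithelial to mesenchymal transition. Lung adenocarcinoma cells that no longer depend on EGFR are known to show such a transition in part of the cases.

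The libraries held 22145136 counts (sensitive) and 22217875 (resistant) after rounding. A gene was called higher or lower in the resistant library where its normalised count differed by at least 2-fold and the exact 95% interval of the log2 ratio excluded 0. That interval covers counting error only; with 1 library a group no p-value was computed, and no difference here has a replicate check. The files list no gene at 0, so a gene absent from a library was set to 3 counts, or to the count worth 0.01 FPKM where that is more, and its fold change is written "at least". By this rule 381 genes (3.21% of those considered) were higher and 1016 (8.56%) were lower, and 97 (0.817%) and 457 (3.85%) of them differed by at least 4-fold. The lower side reached further: 196 genes were at least 16-fold lower and 18 at least 16-fold higher, and of considered genes 31 were absent from the resistant library and 4 from the sensitive one. The 16-fold counts take in every absent gene, also those whose written bound is under 16-fold, such as SPRR1B (log2 bound −3.31). Still, 75.7% of the considered genes lay within 1.5-fold. Genes called lower took 5.03% of all counts in the sensitive library and 1.44% in the resistant one, and genes called higher 1.01% and 2.83%. Calls were denser at low levels: of genes whose higher value lay between 1 and 5 FPKM, 18.5% were lower and 6.70% higher, while above 100 FPKM the shares were 4.15% and 1.42%.

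**Figure D1:**
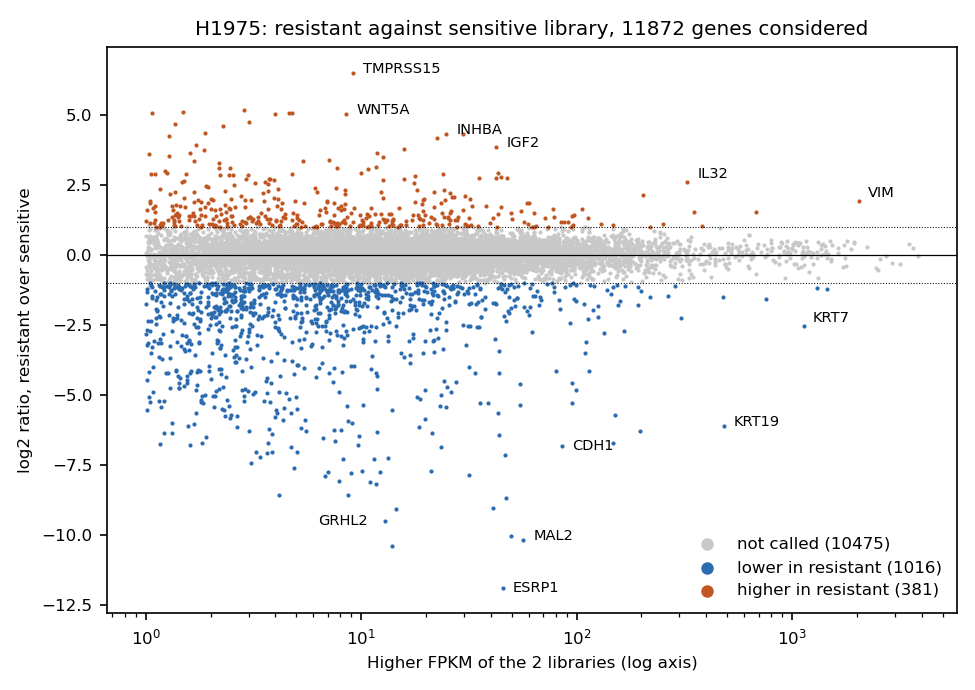
Each point is 1 of the 11872 genes considered, placed by the higher of its FPKM values in the H1975 libraries (log axis) and by its log2 ratio of normalised counts, resistant over sensitive. Dotted lines mark 2-fold; the 1016 lower genes reach a log2 ratio of −11.89 (ESRP1), whereas the 381 higher ones end at 6.51 (TMPRSS15).

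The promoters shown here are of 4 genes at least 4-fold lower in the resistant library. They were chosen after their values were seen and because each holds the E-box CAGGTG on 1 strand or the other. CACCTG is the same motif read from the opposite strand. The promoter of VIM, which was higher, is shown as 1 without the motif, which most promoter windows of all genes lack too. ESRP1 (log2 ratio −11.89) and GRHL2 (−9.51), also far lower, held no E-box or had no RefSeq promoter window. Each sequence is the 250 bases before the RefSeq start site in GRCh38.p14, written along the gene's own strand, with E-boxes in capitals. CRB3 lies at chr19:6464021-6464270 on the plus strand, TMEM30B at chr14:61281339-61281588 on the minus strand, AP1M2 at chr19:10587313-10587562 on the minus strand, LAD1 at chr1:201399325-201399574 on the minus strand and VIM at chr10:17227991-17228240 on the plus strand.
CRB3: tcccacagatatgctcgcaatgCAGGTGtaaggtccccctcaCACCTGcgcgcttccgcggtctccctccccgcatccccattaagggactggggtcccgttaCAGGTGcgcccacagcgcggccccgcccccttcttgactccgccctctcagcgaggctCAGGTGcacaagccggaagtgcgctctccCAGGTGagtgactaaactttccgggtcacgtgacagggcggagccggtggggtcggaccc
TMEM30B: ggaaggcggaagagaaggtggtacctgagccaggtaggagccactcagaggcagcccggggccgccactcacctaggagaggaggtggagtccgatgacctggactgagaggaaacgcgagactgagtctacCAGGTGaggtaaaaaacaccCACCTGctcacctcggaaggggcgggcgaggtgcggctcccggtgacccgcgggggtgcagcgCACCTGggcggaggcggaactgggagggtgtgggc
AP1M2: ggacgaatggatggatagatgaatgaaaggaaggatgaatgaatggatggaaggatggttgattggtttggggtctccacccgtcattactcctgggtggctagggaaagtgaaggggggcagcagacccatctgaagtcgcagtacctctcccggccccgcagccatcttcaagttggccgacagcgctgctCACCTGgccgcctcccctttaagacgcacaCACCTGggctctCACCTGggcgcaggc
LAD1: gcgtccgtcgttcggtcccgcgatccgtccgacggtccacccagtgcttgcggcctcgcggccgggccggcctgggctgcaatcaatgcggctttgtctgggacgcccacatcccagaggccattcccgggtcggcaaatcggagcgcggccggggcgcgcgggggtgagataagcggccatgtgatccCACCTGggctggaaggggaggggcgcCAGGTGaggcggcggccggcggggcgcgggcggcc
VIM: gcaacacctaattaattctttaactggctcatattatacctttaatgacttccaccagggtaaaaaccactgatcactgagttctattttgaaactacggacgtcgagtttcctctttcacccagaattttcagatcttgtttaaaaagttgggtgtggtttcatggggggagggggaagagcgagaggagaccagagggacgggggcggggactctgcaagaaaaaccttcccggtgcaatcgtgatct

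CRB3, the apical polarity protein Crumbs3, held 5 E-boxes in its window and had 210 and 1 counts in the sensitive and resistant library. TMEM30B, a subunit of phospholipid flippases, held 3 in the printed bases and 4 in the window of 300 bases that runs on past the start site; it had 1374 and 1 counts. AP1M2, the epithelial subunit of a clathrin adaptor, held 3 and LAD1, an anchoring filament protein of the basement membrane, held 2, and neither gene was listed in the resistant library. Across the 9722 considered genes with a RefSeq window from 250 bases before to 50 after the start, 18.1% held at least 1 E-box. The share was 31.0% among the 748 windows of genes called lower, 38.2% among the 322 windows of genes at least 4-fold lower and 15.9% among the 283 windows of genes called higher. A second copy was present in 2.53% of all windows, 8.42% of those of lower genes and 13.4% of those of genes at least 4-fold lower. The windows of lower genes also held fewer CG dinucleotides: 29.9% of them had under 10, compared with 10.1% of all windows and 19.1% of those of higher genes, at a median GC content of 65.0% against 65.3%. With at least 10 CG dinucleotides, 32.1% of lower genes' windows held an E-box against 17.6% of all; with fewer, the shares were 28.6% and 22.1%. The other motifs, searched on both strands, were TGACTCA of AP-1 (3.10% of all windows, 6.82% of lower and 3.53% of higher genes), GGAATG of TEAD factors (10.7%, 11.4% and 15.2%), TATAAA (5.29%, 8.96% and 9.89%) and AACCNGTT of grainyhead factors (1.34%, 1.34% and 1.41%). Among the 322 windows of genes at least 4-fold lower, 9.01% held TGACTCA, 12.1% GGAATG, 10.2% TATAAA and 1.86% AACCNGTT. These shares describe letters in windows and do not show that a factor binds there.

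Epithelial transcription factors were lower as a group, with 11 of 19 considered members lower and none higher (median log2 ratio −1.95, against 0.00 over all genes). OVOL2, a zinc finger repressor of ZEB1, had 219 and 1 counts in the sensitive and resistant library, and its relative OVOL1 had 262 and 2. EHF, an ETS factor of epithelia, had 1401 and 9 counts, a fold change of 155-fold. BARX2 (7.05-fold), GRHL1 (4.44-fold), TFCP2L1 (3.88-fold) and ELF3 (2.67-fold) were lower by less. KLF5, PITX1, GATA6 and TFAP2C were not called, nor was NKX2-1, the lineage factor of lung adenocarcinoma (388 and 304 counts, log2 ratio −0.34 [−0.56, −0.12]). Of 14 considered EMT repressors and mesenchymal factors, 5 were higher and 1 was lower. ZEB1, a repressor of CDH1, had 1.65 and 8.42 FPKM and was 5.06-fold higher, and ZEB2 had 0.66 and 3.93 FPKM (6.37-fold). The homeobox gene SIX2 (37 and 179 counts, 4.87-fold) was higher as well. SNAI1 (log2 ratio −0.48) and SNAI2 (−0.85) were not called, and SOX9 was 2.62-fold lower. The higher factors thus included ZEB1, ZEB2, SIX2 and MEOX1, while the Snail family members considered were within 2-fold.

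RNA-binding proteins that set the splicing of epithelial and mesenchymal isoforms differed on both sides. ESRP2, the paralogue of ESRP1, kept 18.3 and 7.45 FPKM and was 2.39-fold lower, far less than ESRP1 with 45.3 and 0.01 FPKM. RBM47 (2.08-fold), KHDRBS3 (3.78-fold) and MBNL3 (8.22-fold) were lower too. Regulators best known from neurons were higher: NOVA1 with 14 and 67 counts (4.81-fold), ELAVL2 with 46 and 117 (2.56-fold) and PTBP2 with 219 and 471 (2.16-fold). The other 11 of 19 members, among them RBFOX2, QKI, PTBP1 and MBNL1, were not called.

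Cell junction genes were lower across all 4 classes of junction. In tight junctions 12 of 18 considered genes were lower and 1 was higher (median log2 ratio −1.82). The barrier claudin CLDN7 had 95.2 and 2.36 FPKM in the sensitive and resistant library (38.99-fold lower), and CLDN4 had 166 and 25.3 FPKM (6.51-fold). The scaffold proteins TJP3 (112 and 1 counts) and CGN, cingulin, were lower, whereas TJP1, a scaffold found in many cell types, was not called, and CLDN11 was 3.21-fold higher. In desmosomes 7 of 9 were lower and none higher: JUP, plakoglobin, had 109 and 9.60 FPKM (11.2-fold lower), and the plaque proteins PPL (20.1-fold), PKP2 (7.95-fold) and PKP3 (3.60-fold) were lower, but DSP, desmoplakin, had 10620 and 9309 counts and was not called. In hemidesmosomes and laminin-332, 5 of 9 were lower, and the chains of laminin-332 differed among themselves, with LAMA3 28.6-fold lower and LAMB3 not called (−0.54).

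Among cadherins, catenins and nectins 7 of 15 were lower and 1 was higher. CDH1, E-cadherin, had 9195 and 81 counts in the sensitive and resistant library, or 85.6 and 0.73 FPKM, and was 113-fold lower (log2 ratio −6.82 [−7.15, −6.50]). CDH3, P-cadherin, had 12195 and 116 counts and was 105-fold lower. EPCAM (150.5 and 2.85 FPKM) was 52.4-fold lower. The nectins went opposite ways: NECTIN4 had 836 and 3 counts (277-fold lower, counts not whole) and NECTIN3 had 346 and 2201 (6.40-fold higher). The cytoplasmic partners of the cadherins, CTNNB1 (0.10), CTNNA1 (0.00) and CTNND1 (−0.56), were not called. Several of these surface proteins are targets of antibody-drug conjugates, and of 18 considered targets NECTIN4, ITGB6, EPCAM and ERBB3 were among those lower, and L1CAM was higher (18.6 and 55.5 FPKM, 3.001-fold). CD276, F3, ALCAM, PTK7 and TFRC were not called.

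Polarity and apical trafficking had 13 of 26 members lower and none higher. Besides CRB3 and AP1M2 above, RAB25, a small GTPase of apical recycling, had 117 and 1 counts and its motor MYO5B had 1514 and 81 (18.6-fold lower). LLGL2 (15.7-fold), RAB17 (14.7-fold), SYTL1 (64.8-fold) and the bundling protein ESPN (19.1-fold) were lower. Core polarity genes used beyond epithelia, PARD3 (0.67), PRKCZ (−0.28) and PALS1 (−0.05), were not called. All 13 considered membrane serine proteases and their inhibitors were called, 11 lower and 2 higher (median −5.42). The kallikreins KLK6 (544 and 1 counts), KLK5 (115 and 0) and KLK10 (43 and 1) and the tethered proteases PRSS8 (278 and 3), PRSS22 (644 and 3), TMPRSS4 (81 and 0) and TMPRSS13 (136 and 0) were at or near 0 in the resistant library. TMPRSS2 went the other way with 1.40 and 10.01 FPKM (7.65-fold higher), and so did TMPRSS3 with 0.7 and 2.90 (3.90-fold). TMPRSS15, the gene furthest higher of all by the bound of its interval, belongs to the same protease family and was not on this list. SPINT2, an inhibitor of these proteases, kept 134 and 19.3 FPKM and was 6.88-fold lower.

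**Figure D2:**
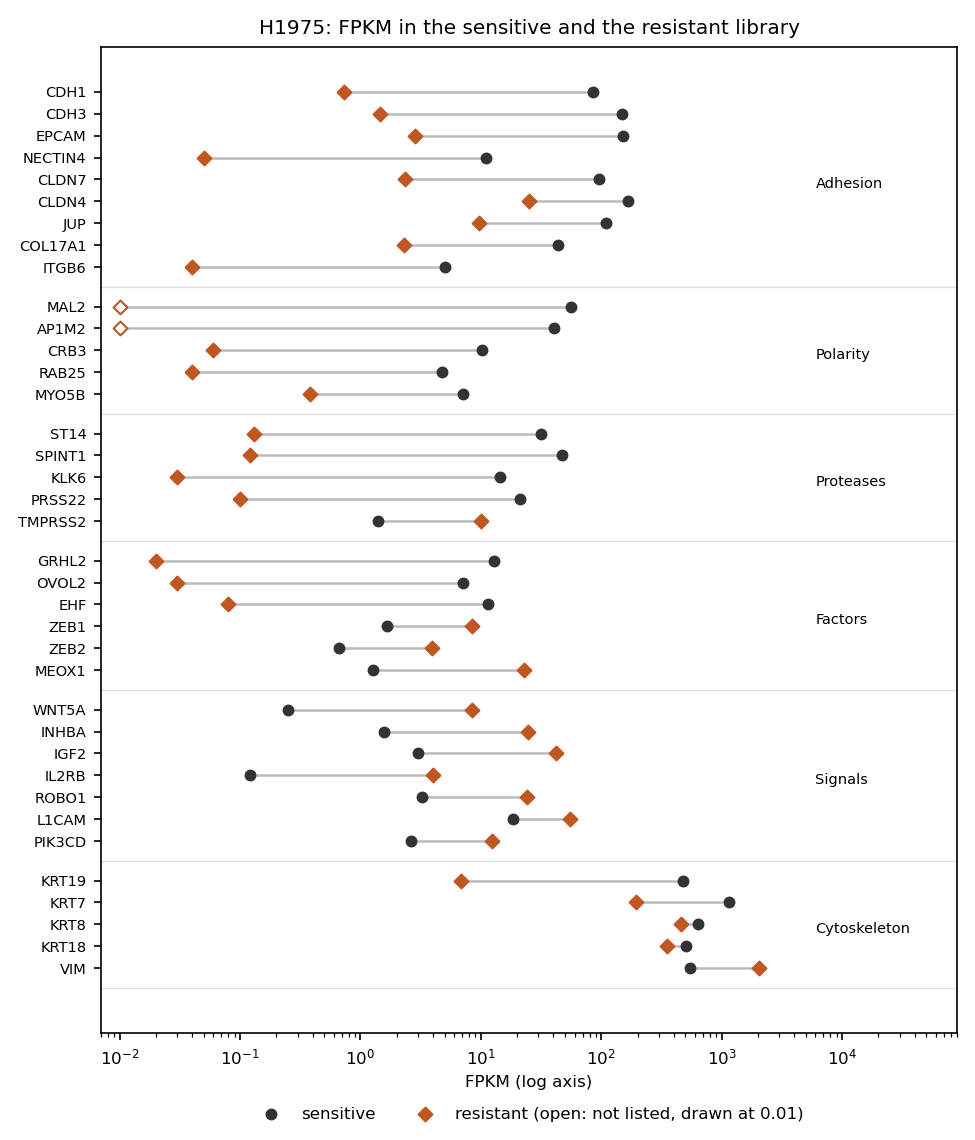
FPKM (log axis) of 37 genes, most of them named in the text, in the sensitive (dark circles) and resistant (orange diamonds) H1975 library, grouped by role. Open diamonds mark genes that the resistant library did not list, drawn at 0.01 FPKM. Adhesion genes sit at 5.01 to 166 FPKM in the sensitive library and at 0.04 (ITGB6) to 25.3 FPKM (CLDN4) in the resistant one, while KRT8 and KRT18 lie close together and VIM moves from 545 to 2051 FPKM.

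Of 11 keratins, the intermediate filaments of epithelia, 6 were lower and none was higher. KRT7 had 1140.5 and 193 FPKM, the largest loss of FPKM among genes called, and KRT19 had 481 and 6.82 FPKM (69.8-fold lower). KRT8 (630.0 and 455 FPKM, log2 ratio −0.46) and its partner KRT18 (503 and 354 FPKM, −0.49) were not called, so the resistant library kept the simple epithelial pair beside 2051 FPKM of VIM. Of 12 S100 genes, small calcium-binding proteins, 6 were lower: S100A9 had 196 and 2.50 FPKM, S100A14 13.3 and 0.09, and S100A7 46.3 and 0, while S100A4, a gene often used to mark mesenchymal cells, was not called (−0.95). Of 14 serpins, inhibitors of serine proteases, 6 were lower and 2 higher. SERPINA3 had 439 and 2 counts and SERPINB5, maspin, 1451 and 33, whereas SERPINA1, alpha-1 antitrypsin, had 123 and 352 FPKM (2.89-fold higher) and SERPINB9, an inhibitor of granzyme B, was 3.37-fold higher.

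Enzymes that build mucin-type glycans were lower in part. Of 24 mucin and glycosyltransferase genes 10 were lower and none higher, with GALNT3 at 1839 and 70 counts, GALNT12 at 1486 and 50 and GALNT5 at 410 and 9. The fucosyltransferases FUT3 (50.5-fold lower) and FUT2 (13.6-fold lower) and the large mucin MUC16 (450 and 7 counts) were in the same group. The more widely expressed GALNT1, GALNT2 and FUT8 were not called. Ion and water transport had 10 of 22 members lower and none higher, among them the ion pump regulator FXYD3 (350 and 0 counts), the sodium channel subunit SCNN1A (11.3-fold lower) and the water channel AQP3 (2.51-fold lower).

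Genes of the mesenchymal cytoskeleton and matrix were not higher as a set, and collagens and matrix proteins were called on both sides. Over all genes 3.21% were higher and 8.56% lower. The list of contractile and actin-binding genes, which also holds VIM, was called at about these shares. Of its 26 considered members 2 were lower and 23 were not called, with log2 ratios of −0.30 for TAGLN, 0.08 for CALD1 and 0.81 for TPM1. The 1 called higher was VIM (3.80-fold), an intermediate filament gene, so no contractile or actin-binding member was called higher. ACTA2, smooth muscle actin, had 89 and 42 counts. Collagens and matrix proteins had 4 of 29 members higher and 7 lower: COL6A2 (20.7 and 50.3 FPKM), COL12A1 and FSTL1 were higher, and FN1, fibronectin, had 266 and 96.2 FPKM and was 2.73-fold lower. Of matrix proteases and their inhibitors 4 of 21 were lower and 1 higher; PLAU, the urokinase gene, had 306 and 63.5 FPKM (4.78-fold lower) and TIMP2 was 2.24-fold lower.

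**Figure D3:**
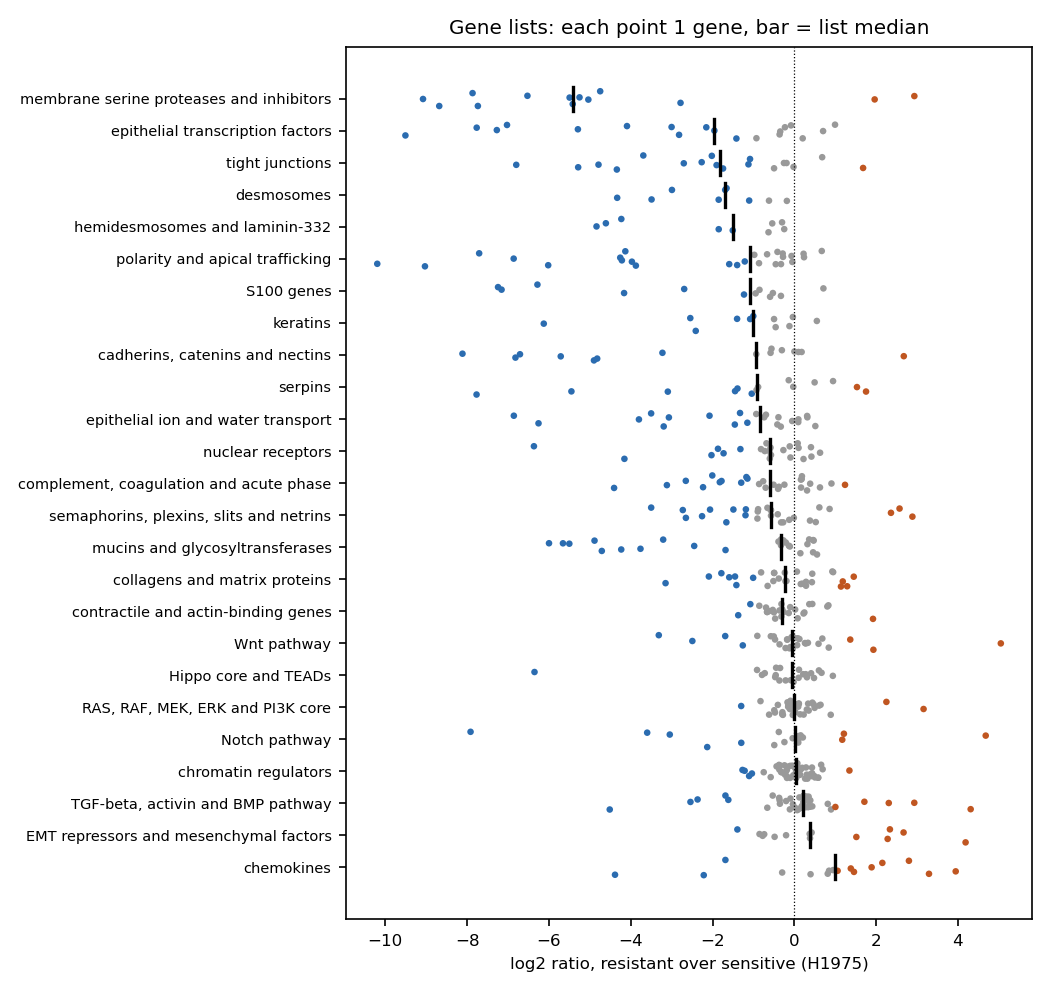
Log2 ratios (resistant over sensitive) of the considered members of 25 of the 50 gene lists; each point is 1 gene, blue where called lower, orange where called higher and grey where not called, and the bar is the list's median. Membrane serine proteases lie furthest left, chemokines furthest right, and the RAS and PI3K core and the chromatin regulators cluster around 0.

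Over the 50 lists together, 257 of 1042 considered genes (24.7%) were lower and 85 (8.16%) higher, beside 8.56% and 3.21% of all genes. The lists were chosen with earlier results of these data known, so these shares describe them and are no test. The shares over all genes also stand beside the counts of each single list, above and below.

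Several secreted ligands were among the genes called. INHBA, the beta A subunit of activins, had 129 and 2549 counts, and BMP7, a further ligand of this family, 15 and 114 (7.64-fold higher). Of 42 TGF-beta, activin and BMP genes 5 were higher and 5 lower; LTBP1, which stores latent TGF-beta in the matrix, and the co-receptor TGFBR3 were 2.01-fold and 3.28-fold higher, BMP4 and ID4 were 5.15-fold and 5.81-fold lower, and TGFB1, TGFBR1, TGFBR2, SMAD2, SMAD3 and SMAD4 were not called. WNT5A, a Wnt ligand that mostly acts without beta-catenin, had 35 and 1153 counts in the sensitive and resistant library, while WNT9A (2372 and 419) and WNT7B (440 and 44) were lower. Among the other 27 of 30 considered Wnt pathway genes the receptor FZD1 (2.58-fold) and the feedback gene AXIN2 were higher and DKK1 and TCF7 lower. Notch genes were lower in 5 and higher in 3 of 18 cases: the target genes split, with HES1 2.46-fold and HES2 8.25-fold lower, and HEY1 (58 and 130 counts) and HES7 (2 and 51) higher. IGF2, insulin-like growth factor 2, had 329 and 4689 counts, or 3.03 and 42.2 FPKM, and was 14.3-fold higher. The receptors IGF1R and INSR were not called, IRS1, an adaptor of both, was 2.32-fold lower, and the binding protein IGFBP6 was 2.86-fold lower. PGF, placental growth factor, had 6.36 and 24.4 FPKM (3.87-fold higher) and CSF3 5.53 and 19.2 (3.50-fold higher), while PDGFB was 4.37-fold lower.

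Of 38 genes in the RAS, RAF, MEK, ERK and PI3K core, 35 were not called. The exceptions included PIK3CD, the delta catalytic subunit of PI3K best known from leukocytes, with 2.61 and 12.3 FPKM (4.76-fold higher), and INPP4B, a lipid phosphatase of this pathway, with 7.18 and 2.83 FPKM (2.46-fold lower). PIK3CA (−0.07), AKT1 (−0.11), AKT2 (0.01) and BRAF (−0.15) were within 2-fold. In the core of the Hippo pathway 21 of 22 genes were not called, with YAP1 at 0.41 and TEAD1 at 0.31; the exception was the cadherin FAT2 (411 and 5 counts). Among Src family and focal adhesion genes, 4 of 26 were lower, the epithelial kinases PTK6 (2.88-fold) and FRK (3.31-fold) among them, whereas SRC, YES1 and PTK2 were not called. Small GTPase regulators had 11 of 32 lower, led by VAV3 (163 and 3 counts) and RHOD (467 and 13), and DOCK4 was 3.62-fold higher.

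Axon guidance genes, which also act in epithelia and vessels, split by family. All 9 lower genes of the 28 considered were semaphorins, plexins or netrins, with SEMA3B at 1240 and 109 counts, SEMA3A at 1105 and 166 and NTN4 at 739 and 117. The 3 higher ones were receptors: ROBO1, a receptor for Slit ligands, had 3.25 and 23.96 FPKM (7.40-fold higher), ROBO4 had 2.88 and 17.6 (5.95-fold) and UNC5B, a netrin receptor, 0.81 and 4.10 (5.15-fold). Of 10 neural adhesion genes, CADM1 (4.79-fold), CNTNAP1 (3.21-fold), TENM3 and L1CAM were higher, and the protocadherins PCDH1 (1926 and 23 counts) and PCDH7 (617 and 32) and SLITRK6 (357 and 15) were lower. Among ephrins and their receptors EPHA1 was at least 222-fold lower (669 and 0 counts, not whole) and EPHB3 9.78-fold lower, while the ligands EFNB1 (2.40-fold) and EFNB3 (3.26-fold) were higher and EPHA2 was not called. Of 33 G protein-coupled receptors and related genes 11 were lower and 3 higher: the bradykinin receptor BDKRB1 had 2.46 and 15.8 FPKM (6.49-fold higher) and the adenosine receptor ADORA2A 6.51 and 23.4 (3.63-fold higher).

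Chemokines were the list with the highest median (1.004 on the log2 scale), with 8 of 16 considered members higher and 3 lower. The neutrophil-attracting CXC ligands CXCL8 (36.8 and 95.2 FPKM), CXCL5 (6.47 and 44.8), CXCL3 (1.89 and 6.93) and CXCL2 (10.9 and 22.5) were higher, by 2.61-fold, 6.98-fold, 3.71-fold and 2.08-fold. CXCL10 (3 and 46 counts) and CXCL11 (8 and 78), ligands induced by interferon, were higher at low counts. The scavenging receptor ACKR3 had 168 and 8 counts and was 20.9-fold lower. Among 32 interleukins and cytokine receptors 5 were higher and 7 lower. IL32 had 54.1 and 327 FPKM, IL6 25.2 and 78.03 (3.14-fold higher) and the receptor subunit IL7R 16.5 and 58.5 (3.59-fold higher), and its ligand IL7 was higher at 7 and 52 counts. The IL-1 family was on the other side: IL1RN, the receptor antagonist, had 132 and 1 counts and IL18 was 2.96-fold lower. In the TNF and death receptor family 4 of 30 genes were higher and 3 lower. TNFRSF9 (3.51-fold), TNFRSF1B (2.31-fold) and CD70 (2.02-fold) were higher beside TNF, and the death receptors TNFRSF10A, TNFRSF10B and FAS were not called. Of 18 pattern recognition receptors 2 were higher and 2 lower, with TLR2 (113 and 538 counts, 4.79-fold) and TLR3 (2.01-fold) higher. Of 26 complement, coagulation and acute phase genes 1 was higher and 10 were lower. Of 29 immune checkpoint and NK ligand genes 1 was higher and 4 were lower. Over all considered genes 3.21% were higher and 8.56% lower. Beside these shares, the few calls in the receptor, checkpoint and interferon lists describe single genes and no family. Within interferon signalling STAT5A (3.39-fold) and IFNAR2 (2.68-fold) were higher and IRF5 (547 and 13 counts) lower, with 31 of 35 genes not called. SOD2, the mitochondrial superoxide dismutase, had 280.0 and 678 FPKM, a gain of FPKM second only to VIM among genes called.

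Metabolic and regulatory lists were mostly within 2-fold. SLCO2A1, a prostaglandin transporter, had 388 and 1 counts (386-fold lower), and PTGES, a prostaglandin E synthase, 108 and 31.4 FPKM (3.40-fold lower). In lipid handling 31 of 36 genes were not called; FABP6, a bile acid-binding protein, had 7.11 and 47.8 FPKM (6.68-fold higher) and the receptor SCARB1 61.8 and 130.4 (2.13-fold higher). GPX3, a secreted glutathione peroxidase, was 7.08-fold lower. ALDH3B2 (470 and 0 counts) and ALDH3B1 (60.2 and 13.7 FPKM, 4.38-fold) were lower, and ALDH2 was not called. Of 20 ABC transporters 3 were lower, ABCA12 (8.62-fold), ABCA2 (2.39-fold) and ABCG2, and ABCA3, a lipid transporter of alveolar cells, was 2.31-fold higher. Nuclear receptors had 6 of 22 lower and none higher, with THRB at 197 and 11 counts and RARG at 2961 and 1181. Of 49 chromatin regulators 44 were not called; BMI1, a Polycomb protein, was 2.55-fold higher, and the Polycomb genes CBX7 and CBX8 were lower by 2.32-fold and 2.41-fold. Of 7 HOX genes HOXB9 (25 and 181 counts), HOXC13 (97 and 241) and HOXC4 (105 and 215) were higher and none was lower.

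Some of the highest genes belong to no list. TLE4, a corepressor, had 96 and 1202 counts (12.6-fold higher), the glutamate transporter SLC1A3 3 and 102, the anthrax toxin receptor ANTXR1 79 and 836 (10.6-fold) and PLAC8 35 and 390 (11.2-fold). RIPOR3 (19.1-fold) and ZNF704 (12.4-fold) were also among the 20 furthest higher. Calls for several genes at both ends are uncertain because reads can be shared with copies or overlapping genes: SCHIP1 had 0 and 108 counts while the overlapping IQCJ-SCHIP1 had 556 and 296.5 expected counts, CT45A3 had 0 and 101 while its copy CT45A2 had 842 and 639, and CKMT1B had 331.5 and 0 while its copy CKMT1A had 300.4 and 45. OR2T8 and MTPN had counts that were not whole, and TPSG1 overlaps CACNA1H, so these 3 are uncertain as well. Of all considered genes 48.3% had a non-whole count in at least 1 library. TMEM30B overlaps PRKCH, CRB3 overlaps DENND1C, SOD2 overlaps WTAP, PLAU overlaps C10orf55, ACTA2 overlaps FAS, and CXCL10 and CXCL11 overlap ART3; strand use is not stated, so reads of such pairs may not be told apart. Some calls lie close to 2-fold and turn on the scaling: AGRN, AVPI1, KRT15 and RHOB were not called with DESeq2 size factors, and CD70, GDI2, LTBP1 and TLR3 were not called with total counts.

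The differences were not spread evenly along the chromosomes. Genes were put in RefSeq order and cut into 582 blocks of about 20 considered neighbours, and the median log2 ratio was taken in each; from the 5th to the 95th percentile these medians ran from −0.39 to 0.38. The first 5 blocks of chromosome 10, which run from TUBB8 to ZNF33B and hold 105 considered genes, had the 5 highest medians of all. The lowest of the 5 was 0.647, and the highest median of any other block was 0.601. Over these genes the median was 0.84, or 1.78-fold, 97 of 105 were above 0, and 29 were called higher and 5 lower. The other 346 considered genes of chromosome 10 had a median of −0.09, with 7 higher and 35 lower. The stretch contains VIM, ZEB1 and BMI1, described above. It also contains BAMBI, a decoy receptor of the TGF-beta family (188 and 927 counts, 4.96-fold higher), and MAP3K8, a kinase of the MAPK and NF-kappaB pathways (6.17 and 26.4 FPKM, 4.19-fold higher). Further genes called higher there were KIF5B (2.02-fold), GDI2 (2.002-fold), CDC123 (2.09-fold), MCM10 (2.56-fold) and MASTL (2.58-fold), which serve transport, translation and cell division. ITGB1, the integrin beta 1 subunit, lay just under the limit at 0.97, while NRP1 from the same stretch was at −0.57. VIM and ZEB1 exceeded the median of their stretch by more than 1 on the log2 scale. After centring by transcript GC content the median was 0.74, and in HCC827 the same genes had a median of 0.19.

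Further stretches lay outside that range on either side. A stretch of 120 genes on chromosome 12, from LEMD3 to USP30, had a median of 0.54 with 14 genes higher and 3 lower, among them NAP1L1 and the oxidoreductase MSRB3 (4.56-fold higher). On chromosome 5, 40 genes from MTMR12 to PAIP1 had a median of 0.55 and hold IL7R and SLC1A3. The lowest block of all, 20 genes on chromosome 11 from KDM2A to ALDH3B2, had a median of −1.03 with none above 0 and 11 called lower, including the cofilin phosphatase SSH3 (37.4 and 9.66 FPKM) and the polymerase subunit POLD4 (68.4 and 22.4 FPKM). The last 60 considered genes of chromosome 22, from PACSIN2 to RABL2B, had a median of −0.64 and 13 lower calls, and chromosome 22 as a whole had 16.4% of its genes lower. Transcript GC content moved with these values: it had a median of 60.9% in the chromosome 11 block and 59.1% in the chromosome 22 stretch, against 43.6% in that of chromosome 10. After centring by GC the medians were −0.82 for chromosome 11, −0.54 for chromosome 22, 0.42 for chromosome 12 and 0.44 for chromosome 5. DNA copy number was not measured here, and its part in these values was not tested.

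**Figure D4:**
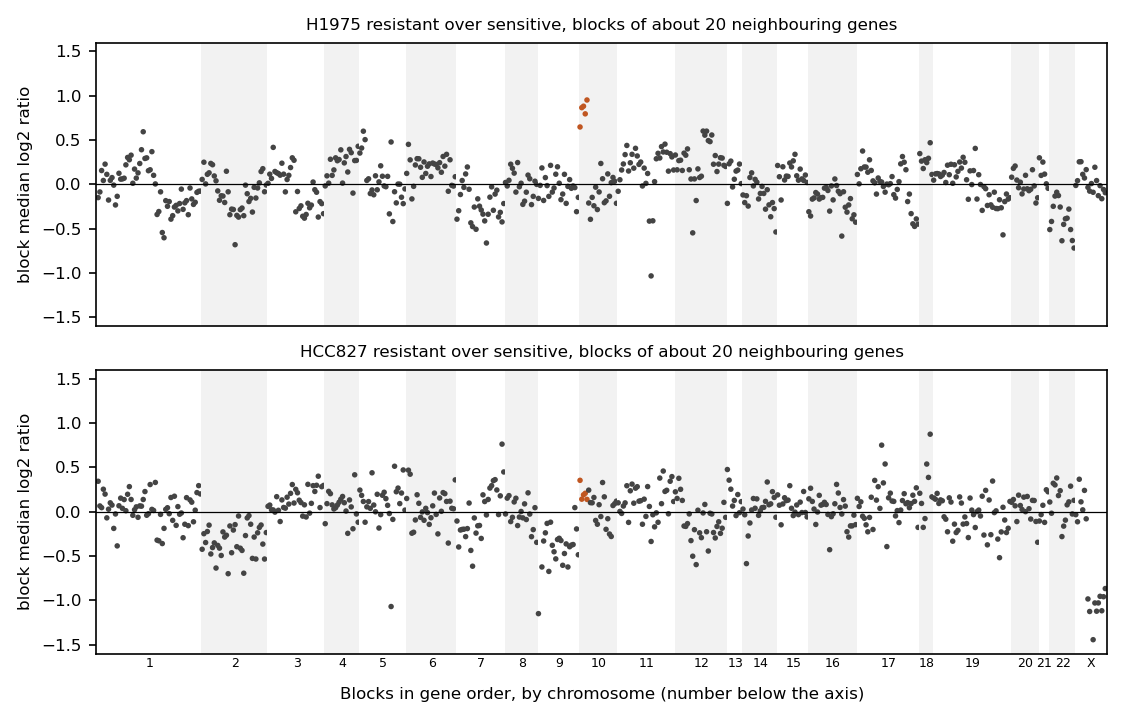
Median log2 ratio (resistant over sensitive) in blocks of about 20 neighbouring genes, in gene order with chromosomes as shaded bands, for H1975 (top) and HCC827 (bottom); the first 5 blocks of chromosome 10 are orange. They stand above all other H1975 blocks, at 0.65 to 0.95, and are not set apart in HCC827, where the lowest blocks lie on the X chromosome and at the start of chromosome 9. The lowest HCC827 block on each of these chromosomes (−1.83 on X, −1.63 on chromosome 9) falls below the axis and is not drawn.

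Some gene families that lie side by side also differed together, while other runs of neighbours called the same way were not families. The number of runs that the share of lower calls over all genes (8.56%) would give was not computed. There were 19 runs of at least 3 considered neighbours called lower, holding 77 genes, and 2 runs called higher, holding 6. The longest had 9 genes of the epidermal differentiation cluster on chromosome 1, from IVL over SPRR1B, SPRR2D, SPRR2A and SPRR2F to S100A9, S100A8, S100A7 and S100A6. A run of 6 on chromosome 7 held CLDN3 and CLDN4, 1 of 4 on chromosome 12 held KRT80, KRT7, KRT86 and KRT81, and 1 of 5 on chromosome 2 held IL1A, IL1B, IL36RN and IL1RN. PSG5, PSG4 and PSG9, pregnancy-specific glycoproteins on chromosome 19, stood in a run of 5 with CD177 and LYPD3. A run of 6 on chromosome 22 began with the GTPase gene RAC2 (168 and 77.5 FPKM) and ended with CDC42EP1. The higher runs were CXCL5, CXCL3 and CXCL2 on chromosome 4 and the olfactory receptors OR2T8, OR2T33 and OR2T12 on chromosome 1, whose reads can be shared among copies.

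The ratio was graded by transcript GC content over all genes. In the fifth of genes with the lowest GC the median log2 ratio was 0.14 and 3.23% of genes were lower, and in the fifth with the highest GC it was −0.20 and 15.8%. Shares of higher calls ran from 3.35% to 2.51% over the same classes. Among the genes with a GC value, 1003 were called lower and 375 higher before the ratios were centred by GC, and 944 and 372 after.

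The length that RSEM implied for each gene, from its counts and FPKM, shows whether a gene's reads came from longer or shorter transcripts. It was compared for 8239 genes that reached 5 FPKM and 100 counts in both libraries. For 1 gene it shifted by over 0.5 on the log2 scale: AKR1B1, an aldose reductase, had 26309 and 31674 counts and 599 and 1167 FPKM, while its deposited length was 1416 in both libraries. Its FPKM and its count therefore disagree within the files, and its count ratio (log2 0.28) is the value used here. The next shifts did follow the deposited length: CCDC50 went from 4600.2 to 6199.8 bases and PDK3, a pyruvate dehydrogenase kinase, from 2905 to 3895, whereas CSTF3, a subunit of the cleavage stimulation factor, went from 2457 to 1856 and RGS3 from 2508 to 1898. ZNF200, ZNF43, PIGL, PAWR and CEP85 lengthened by 0.39 to 0.41 on the log2 scale. These are estimates of the mix of transcripts from short reads, with no replicate.

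The HCC827 pair gives the same genes in a second line whose drug was gefitinib. There, 838 of 11890 considered genes (7.05%) were higher and 1302 (11%) lower, and at 4-fold 309 (2.6%) and 458 (3.85%). Of the 776 genes lower in H1975 and considered in both lines, 382 (49.2%) were lower in HCC827 and 65 (8.38%) higher; over all 10961 genes considered in both, 9.66% were lower in HCC827 and 5.76% higher. Of 250 genes higher in H1975, 108 (43.2%) were higher in HCC827 and 20 (8%) lower. Among genes considered in both lines, the 382 make up 36.1% of the 1059 lower in HCC827. The 108 make up 17.1% of the 631 higher there. At 4-fold in H1975, 220 of 325 (67.7%) were lower in HCC827. KLK6 had 40.8 and 0.2 FPKM in sensitive and resistant HCC827 cells, GRHL2 15.6 and 0.05 and CDH3 232 and 10.9. KRT19 stayed abundant there, with 1741 and 297 FPKM, and LAD1, absent from resistant H1975 cells, kept 144 and 65.6. IL32 had 0.69 and 65.2 FPKM and BCL2, which restrains apoptosis, 0.03 and 2.80, both higher in the resistant cells of both lines. MEOX1 and TMPRSS15 were not considered in HCC827, and WNT5A had at most 0.19 FPKM there. IGF2 (1.14 and 0.31 FPKM) and LYPD6 (3.43 and 1.69 FPKM) were lower in resistant HCC827 cells. The lines differ in drug, depth and annotation, and the difference between them was not tested.

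**Figure D5:**
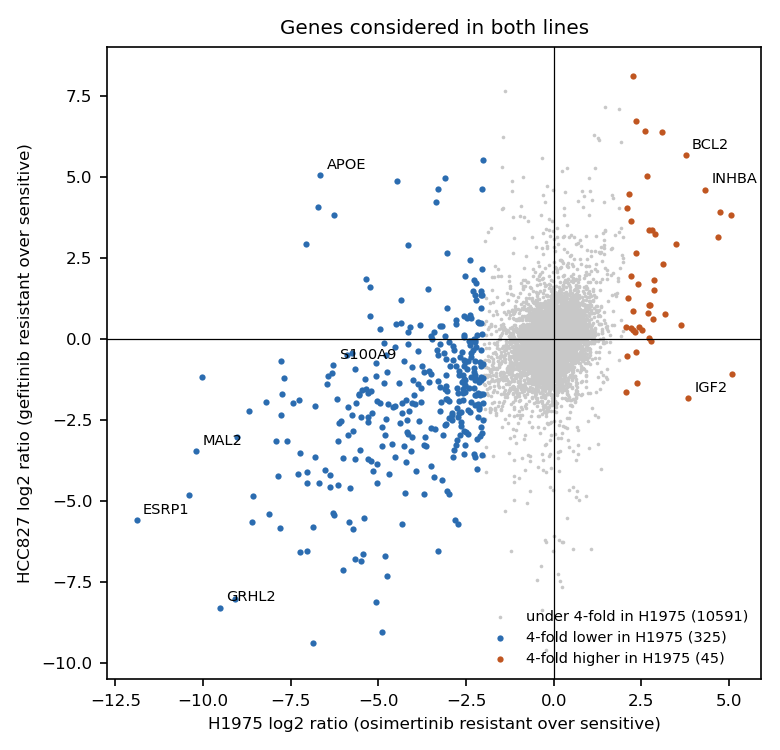
Log2 ratio of resistant over sensitive cells in H1975 (x axis) and HCC827 (y axis) for the 10961 genes considered in both lines; blue and orange points are genes at least 4-fold lower or higher in H1975. Of the 325 blue points, 220 are called lower in HCC827 too, and 27 are called higher, APOE among them.

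The label of both H1975 samples, lung adenocarcinoma, was set against marker genes. Of 10 lung and epithelial markers 8 were considered, 5 of them lower and none higher, and their FPKM summed to 3092 in sensitive and 1035 in resistant cells; none of the 10 was at 0. Markers of other cell types were sparse: the sums were 11.3 and 5.54 FPKM for 8 blood cell markers, of which CD3E, MS4A1 and HBB were at 0 in the resistant library, 19.8 and 11.99 for 10 fibroblast markers, 1.32 and 0.81 for 5 endothelial markers, and 0.42 and 0.49 for 5 neuroendocrine markers. The markers of these 4 other types were thus no higher in the resistant library in sum, apart from the neuroendocrine ones at under 1 FPKM. In a bulk library, fewer cells with a transcript and less of it per cell cannot be told apart.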

How the data were processed

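RNA from 2 H1975 and 2 HCC827 libraries was sequenced, 1 library for each of 4 groups, made with TRIzol extraction and an MGIEasy mRNA kit, per the labels' protocols. HISAT2, Bowtie2, RSEM and the hg19 build are named in the submitters' processing notes, without versions, settings or strand use. In the deposited files each gene has RSEM expected counts (estimated read counts, not normalized), FPKM, which the authors scaled by length and library total, and the transcript length RSEM assigned. Because genes at 0 are not listed and reads are not unique molecules, intervals and floors cover counting error only.

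Expected counts were rounded and scaled by TMM factors (edgeR 4.0.16) from the considered genes, 1.005 (sensitive) and 0.995 (resistant) in H1975. No prior count entered the log2 ratio, whose interval came from Clopper-Pearson limits on the resistant library's share of both counts (scipy 1.17.1). At 20 counts in each library this interval reaches 0.97 to either side on the log2 scale, at 100 counts 0.41 and at 1000 counts 0.13. The calculation was tested on simulated data.

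Symbols came from a RefSeq table of GRCh38.p14 (99.6% of considered genes matched), used for names, neighbour order and overlaps of genes. Overlaps are of whole gene spans in that build, introns included. Promoter windows are RefSeq's in that build, and transcript GC content came from GENCODE v29 (99.1% matched). No coordinate of the files' own build was used.

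Genes were named by a rule: the 20 higher and 20 lower with the interval bound furthest from 0, the 10 largest gains and losses of FPKM, up to 6 called members and the defining members of each of 50 lists, the 10 largest shifts of implied length and the longest runs of neighbours. Some genes that this rule picks are not reported here. Members, lists and rules were chosen with earlier results of these data known. Other scalings, filters, FPKM pseudocounts of 1 and 0.1 and DESeq2 1.42.0 size factors were tried as alternatives. The TMM factors from all listed genes, the centring by GC and the blocks of neighbours were added after the data were seen.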

Additional observations from a re-analysis of the deposited data

Results flagged for a closer look

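A total of 85 genes called in H1975 were called the opposite way in HCC827, 14 of them at least 4-fold in each line, and all 14 were lower in resistant H1975 cells and higher in resistant HCC827 cells. Of these, 13 are described here because the lines' single pairs of libraries point in opposite directions; the difference between the lines was not tested.

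In the MHC class II pathway, HLA-DPA1 had a log2 ratio of −7.08 in H1975 (0 and 24 counts in the sensitive and resistant HCC827 libraries), HLA-DRA was at least 76.9-fold lower in H1975 (a bound of −6.26; 3 and 45 counts in HCC827), and the invariant chain CD74 had −4.14 (9 and 70 counts in HCC827). APOE, an apolipoprotein, had −6.66 in H1975 and 2 and 70 counts in HCC827, and MAOB, a monoamine oxidase, had −6.72 and 5 and 89 counts. The aldo-keto reductase AKR1C1 had −3.36 in H1975, with 5 and 98 counts in HCC827; it has close copies and is uncertain. SP140, a chromatin reader of immune cells, had −3.30 (1 and 26 counts in HCC827), CSRP3, a muscle LIM protein, −3.10 (0 and 99), and PSG5 −3.05 (0 and 20). The smallest differences in H1975 were those of GEM, RNF144A, FILIP1L and ANKRD1 (−2.38, −2.05, −2.04 and −2.02). Their HCC827 counts were 34 and 192, 17 and 79, 9 and 233, and 22 and 1064. SP140 overlaps SP110, HLA-DPA1 overlaps HLA-DPB1 and FILIP1L overlaps CMSS1 by their whole gene spans, so reads of these pairs may not be told apart. The counts of FILIP1L were whole in H1975 (634 and 153) and in HCC827. The H1975 counts of PSG5, SP140, HLA-DPA1, CSRP3, RNF144A and AKR1C1 were not whole, so these genes are uncertain as well.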

How the results depend on the processing

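No paired analysis was possible because each group has 1 library, and for the same reason no replicate could be left out. DESeq2 size factors, total counts, FPKM with a pseudocount of 0.1, TMM factors from all listed genes and centring by GC each kept the counts of all H1975 genes called, at 2-fold and at 4-fold, within 1.5 times of those reported; the first 3 also kept the counts shared with HCC827, which were not recomputed for the last 2. With no filter on low values, H1975 had 585 genes higher and 1570 lower (207 and 823 at 4-fold), and 179 were higher in both lines. A filter at 5 FPKM and 100 counts tests fewer genes and gave 202 higher and 521 lower (43 and 205 at 4-fold), 197 lower and 54 higher in both lines, and 164 lower and 52 higher genes in the lists. On log2(FPKM + 1), which shrinks low genes, 202 were higher, 34 and 190 passed 4-fold, and 64 were higher in both lines. With whole counts alone, again fewer genes, 198 were higher and 601 lower (52 and 290 at 4-fold), 227 lower and 55 higher in both lines, and 52 list genes higher. Implied lengths shifted by over 0.3 (log2) in 0.243% of genes, and in 0.133% at 10 FPKM and 200 counts. At 4-fold 4 runs of neighbours were lower in place of 19. The share of E-boxes in lower genes was 26.9% in the 250 bases before the start, a change within 1.5 times. Counts and medians of single lists also moved: over 8 alternatives 134 of 800 list counts changed by over 1.5 times and 105 of 400 list medians moved by at least 0.1 (log2). Of 100 list counts, 2 moved with DESeq2 size factors, 1 with total counts, 5 with a pseudocount of 0.1, 8 after centring by GC, 16 on log2(FPKM + 1), 21 with no filter, 35 with whole counts and 46 with the stricter filter. Of 50 list medians, 0, 0, 4, 9, 16, 21, 31 and 24 moved in the same order. None of the 371 called genes that a list or the naming rule picked out changed direction under an alternative in which it was considered, but 4 lost the 2-fold call with DESeq2 size factors, 4 with total counts, 4 with TMM factors from all listed genes, 6 with a pseudocount of 0.1, 20 after centring by GC and 61 on log2(FPKM + 1). Depth limits genes near 20 counts, where differences under 2-fold are within the interval.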
